A study of Rattus norvegicus with 12 samples.

Results

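The genes described here encode carriers and pumps that move organic ions, drugs, bile acids and urate across cell membranes. They were chosen by name, without use of any measured value: every gene whose name on the array begins with Slc22a, Slco, Slc47a, Abcb, Abcc or Abcg followed by a number. This gave 65 genes of 26442 with a probe, measured by 82 of 30367 probes. To be tested, a gene needed a probe that every array of some group, 4 of 4, showed well above background. Of the 65 genes 44 met this, among 18510 genes on the array, and the other 21 were not tested, 12 of them above background on no array.

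The left kidneys came from female rats of the inbred strain F344, aged 10 weeks, and their RNA was hybridised to 1 array per rat. One operation was unilateral ischemia-reperfusion injury (IRI), which halts and then returns the blood flow of the kidney, and the other was a sham operation. IRI rats were killed at day 3 or day 7 and sham rats at day 7, with 4 rats per group. No sham rats were killed at day 3, so injury and time after the operation cannot be told apart in the comparison of day 3 with sham.

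The proximal tubule secretes drugs and metabolic waste in a relay. Organic anion transporters and organic cation transporters of the Slc22a family take up their substrates from the blood on the basolateral side of the cell. Anions enter in exchange for dicarboxylates that sodium-coupled carriers have brought in. Pumps of the Abcb, Abcc and Abcg families, driven by ATP, and the proton-coupled MATE exporters of the Slc47a family then pass many substrates into the urine. Slco genes encode organic anion transporting polypeptides, which carry larger anions such as steroid conjugates, thyroid hormones and prostaglandins.

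Each level is given on a log2 scale against its array's 75th percentile of signal, so a difference of 1 is a 2-fold change. Levels of different genes come from different probes and are not compared. A gene was called where limma gave an adjusted p under 0.05. The unscaled 75th percentile was 328 ± 72.6 intensity units (SD, n = 4) in sham, 714 ± 34.5 at day 3 and 502 ± 60.9 at day 7, and all changes are relative to it. Between 65.0% and 76.0% of spots per array exceeded background in sham, 73.3% and 80.6% at day 3, and 67.1% and 76.2% at day 7. Every one of the 3 slides held all groups. Slide 1 was scanned on a different date (scan batch) from slides 2 and 3. The number of arrays limits the precision and p-values measure the spread between these rats.

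The tissue was whole kidney, in which fewer cells of a type and less RNA per cell cannot be told apart. The counts of called markers below stand against 33.1% of all tested genes lower and 24.2% higher at day 3. At day 7, 10.6% of all tested genes were lower and 8.21% higher. Of 12 proximal tubule marker genes, 10 were lower at day 3 and none higher by limma. The log2 of their summed signal ranged over the sham arrays from 8.75 to 8.81, over the day 3 arrays from 5.71 to 7.21 and over the day 7 arrays from 7.40 to 8.45, and 3 were lower at day 7 than in sham. Of 10 tested macrophage markers, 7 were higher at day 3 and 3 at day 7 (summed signal 3.65 to 4.16, 4.81 to 5.34 and 4.45 to 4.94 in the same order of groups), with Cd163 and Mrc1 too dim to be tested. All 7 tested fibroblast markers were higher at day 3 and 6 at day 7 (3.98 to 4.79, 6.28 to 6.94 and 5.84 to 6.25). Lum, among these, was above background on no sham array, and the macrophage marker Adgre1 on 2. Both passed the filter only through day 3, where they were high, so the filter favoured their calls there. Of 10 endothelial markers, 6 were lower at day 3 and 4 at day 7 (4.48 to 4.82, 3.37 to 3.92 and 3.44 to 4.51). All 6 markers of the thick ascending limb and distal tubule were lower at day 3, and 2 were higher at day 7 (6.08 to 6.32, 2.34 to 3.27 and 5.57 to 5.88). Of 5 hepatocyte markers, 4 were too dim to be tested, Alb and Ttr among them on no array above background, and Serpina1 stood at -0.54 at day 3 (adjusted p = 0.26). The part of these cell types in the results below was not tested.

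At day 3 after injury, all tested Slc22a carriers were lower, and efflux pumps were called in both directions. Of the 44 tested genes, 31 were called in the comparison of day 3 with sham, against 57.3% of all tested genes. Of the 31, 24 were lower and 7 higher, where 33.1% of all genes were lower and 24.2% higher. The median log2 fold change of the 44 genes was -0.72, and that of all tested genes was -0.13. In 27 genes the 4 arrays of one group did not overlap those of the other, against 51.7% of all genes. All 15 tested Slc22a genes were lower. Of 23 tested Abcb, Abcc and Abcg genes 6 were higher, near the share of all genes, 5 were lower and 12 were not called.

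**Figure D1:**
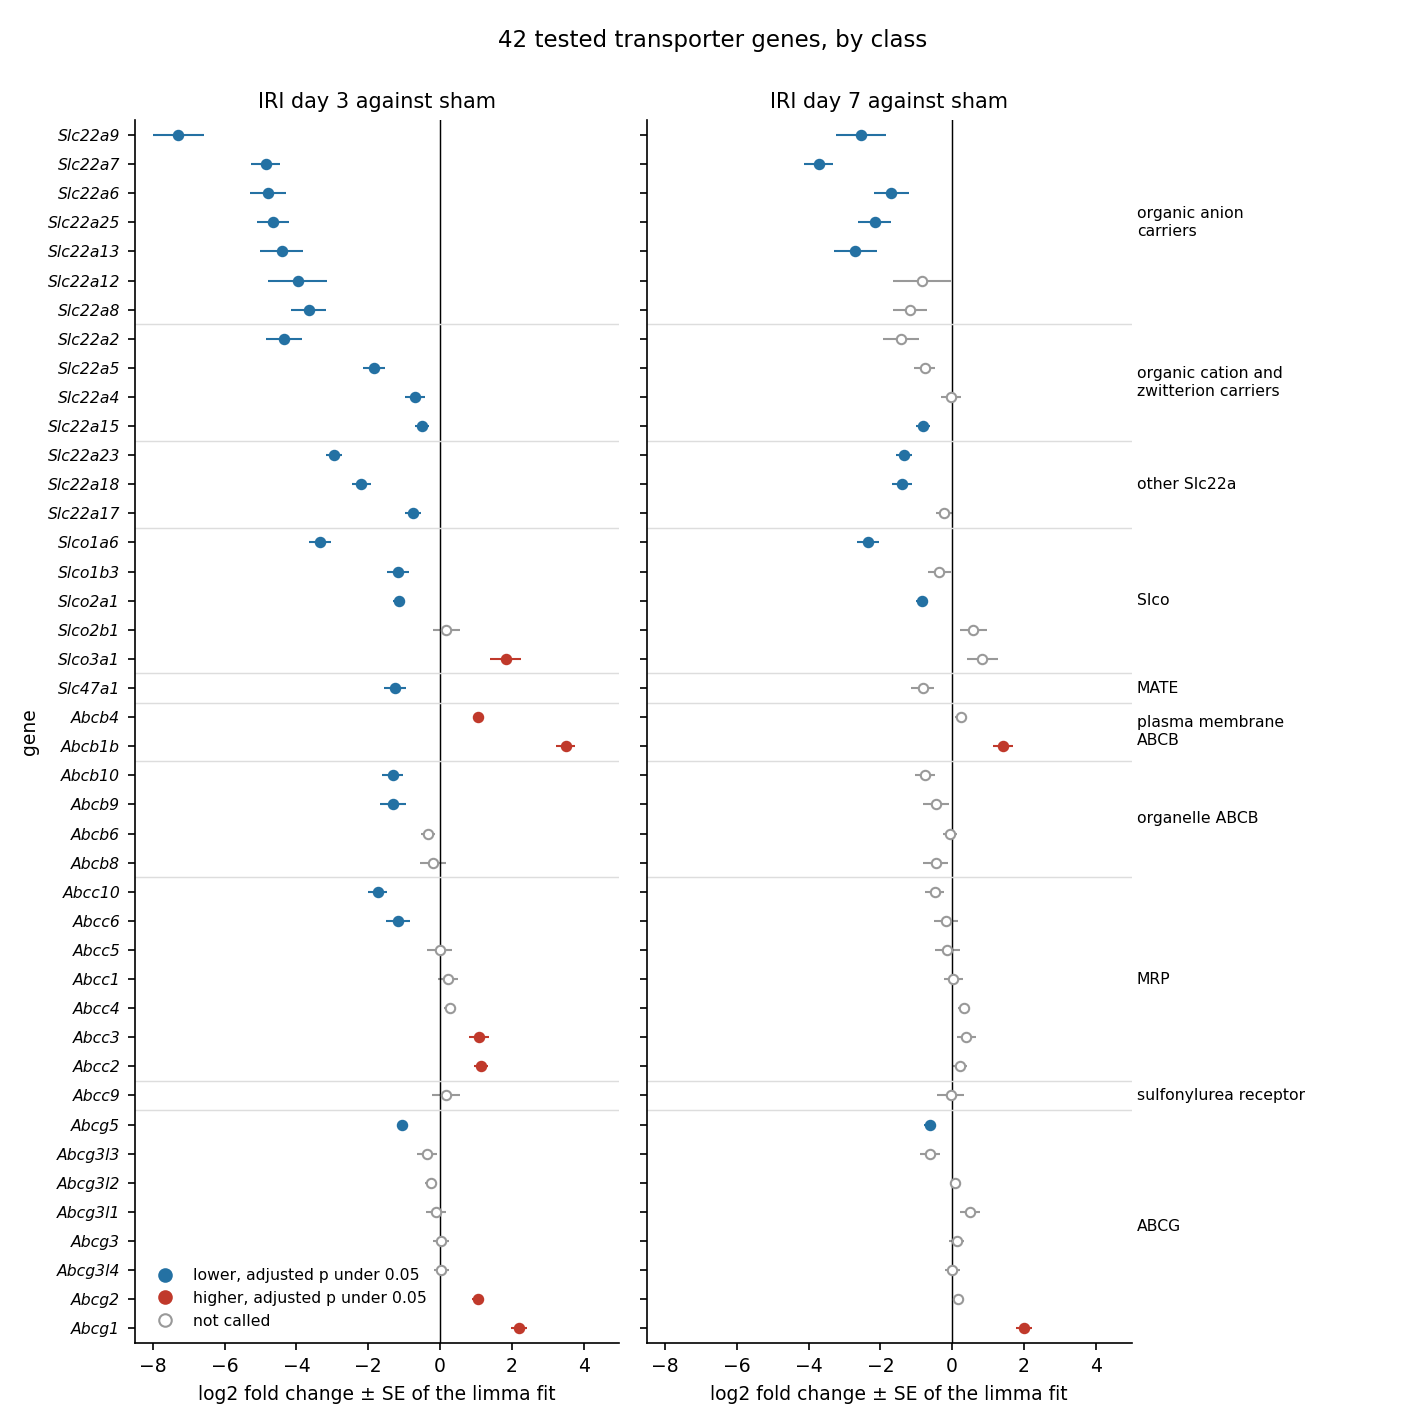
Log2 fold change against sham (x axis, ± SE of the limma fit) of 42 of the 44 tested transporter genes (y axis), grouped by class, at day 3 (left) and day 7 (right). Filled points passed an adjusted p of 0.05; all 14 Slc22a genes shown lie left of 0 at day 3, and Abcb1b has the highest value. Slco1a6 at day 3 is a fitted value with no day 3 array above background.

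At day 7, 13 of the 44 genes were called against sham, compared with 18.8% of all tested genes. Of these, 11 were lower and 2 higher (all genes: 10.6% and 8.21%), with a median of -0.41 against -0.07 for all genes. The arrays did not overlap in 16 genes (all genes: 21.7%). Under scaling to total signal the split was 8 lower and 4 higher. Between day 3 and day 7, 19 genes were called (all genes: 31.4%), 15 of them higher at day 7 and 4 lower (all genes: 18% and 13.4%), with a median of 0.43 against 0.05. The arrays did not overlap in 14 (all genes: 36.1%). The comparisons of day 3 and of day 7 with sham share the 4 sham arrays. A normexp background correction, an alternative way of subtracting background, gave 17 calls for day 3 against sham, 0 for day 7 against sham and 2 for day 7 against day 3. Of all genes, 17.1%, 0.492% and 0.859% were called under it. At an unadjusted p under 0.05 normexp gave 27, 10 and 15, and the shares of all genes were not counted. With spots dimmer than their local background left out, the same correction gave 31, 14 and 25 calls by limma (all genes: 64.2%, 19.0% and 42.4%). Its 31 calls at day 3 were 5 higher and 26 lower, and 29 of them were also called without it.

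The genes followed a small number of courses. Of the 24 genes lower at day 3, 8 were still lower than sham at day 7 and had risen since day 3 (Slc22a6, Slc22a9, Slc22a13, Slc22a18, Slc22a23, Slc22a25, Slco1a6 and Abcg5). Another 7 had risen since day 3 and were not called against sham at day 7 (among them Slc22a2, Slc22a5, Slc22a8, Slc22a12, Abcc6 and Abcc10). In 3 the level was lower at both days with no call between them (Slc22a7, Slc22a15 and Slco2a1), and 6 were called against sham at day 3 and in neither of the other comparisons (Slc22a4, Slc22a17, Slc47a1, Slco1b3, Abcb9 and Abcb10). At day 7 the arrays of 14 of the 24 still lay below all sham arrays, and those of 10 overlapped them. Of all tested genes, 21.7% did not overlap at day 7, in either direction. That share is no like comparison, because the 24 were chosen as low against the same sham arrays. The 4 arrays of the day 3 group were not alike: replicate 3 was the array nearest to sham in 19 of the 24 genes, and replicate 4 the farthest in 16. Replicate 3 was also the only day 3 array on slide 1 and in its scan batch. A difference of this rat therefore cannot be told apart from one of slide or scan date. Neither the courses nor this order of the arrays was counted over all genes. Replicate 3 also had the highest summed signal of proximal tubule markers (7.21) and replicate 4 the lowest (5.71). Without replicate 3 the count at day 3 was again 31.

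**Figure D2:**
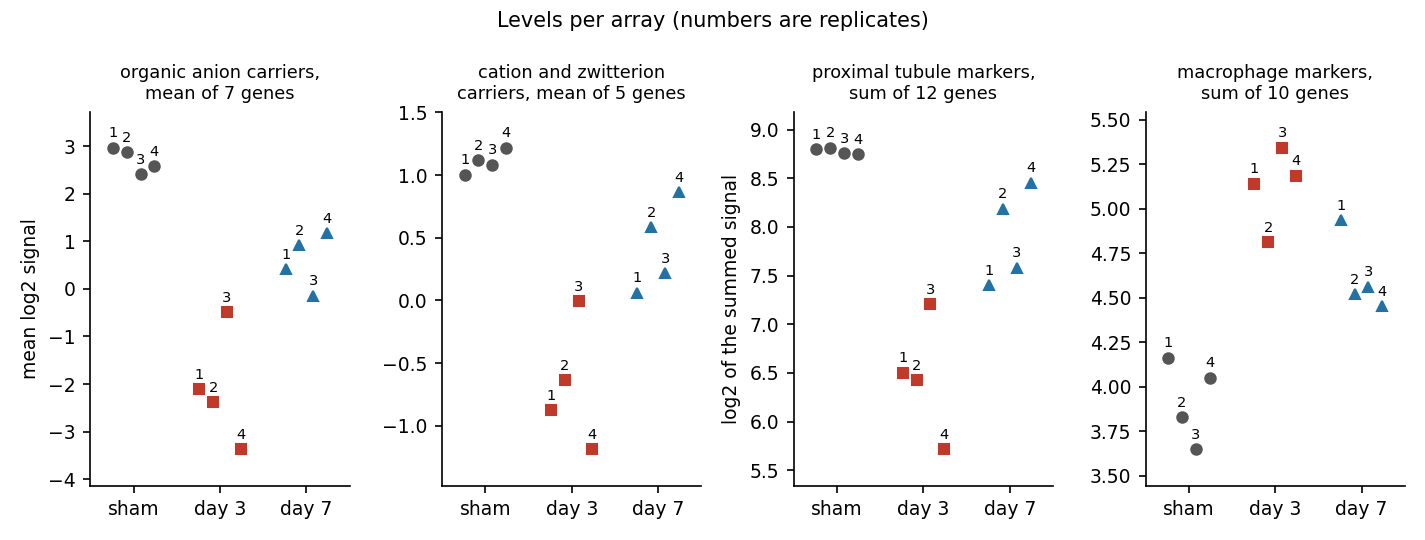
Level of every array (y axis, log2; numbers are replicates) in sham, at day 3 and at day 7: the mean of 7 organic anion carriers, the mean of 5 cation and zwitterion carriers, and the summed signal of 12 proximal tubule and 10 macrophage markers. Day 3 replicate 3 is the highest and replicate 4 the lowest day 3 array in the first 3 panels.

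The organic anion carriers had the largest falls of any class. All 7 tested carriers were lower at day 3 (all genes: 33.1%), with a median log2 fold change of -4.65. At day 7, 5 were lower (all genes: 10.6%), with a median of -2.16. Between the days 6 of the 7 rose (all genes: 18%), with a median of 2.49. Slc22a20, the other gene of this class, was above background on no array.

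Slc22a6 encodes OAT1, the main basolateral carrier for p-aminohippurate, antiviral drugs and diuretics. Its log2 levels in replicates 1 to 4 were 6.23, 6.25, 6.46 and 6.37 in sham, 1.53, 1.34, 3.14 and 0.15 at day 3 and 4.17, 5.07, 4.04 and 5.26 at day 7. The sham rats were nearly alike, every day 3 array lay below every day 7 array, and every day 7 array below every sham array. The level fell 27.6-fold at day 3 (-4.79 ± 0.50 SE, adjusted p = 2.11e-05). By day 7 it had risen 8.56-fold from day 3 (adjusted p = 0.00175) but was 3.23-fold below sham (-1.69 ± 0.50 SE, adjusted p = 0.0355). That last call lay near the threshold: it ended without sham replicate 1, 2, 3 or 4 (adjusted p = 0.0667, 0.0585, 0.071 and 0.0615), without day 7 replicate 1 (0.0899) or 3 (0.0971), under quantile normalization (0.0839) and under scaling to total signal (0.0538).

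Slc22a8 encodes OAT3, which shares much of the substrate range of OAT1 and also takes up steroid conjugates. Its probe (chr1:211287537-211287596 in the rat build rn4) lies beside that of Slc22a6 (chr1:211302331-211302390). The levels were 4.79, 4.75, 4.64 and 4.84 in sham, 1.01, 1.06, 2.68 and -0.35 at day 3 and 3.25, 3.80, 3.11 and 4.17 at day 7, in the order of the replicates. As for Slc22a6, the 3 groups did not overlap, and day 3 replicate 3 stood highest and replicate 4 lowest among the day 3 arrays. The fall at day 3 was 12.6-fold (-3.66 ± 0.48 SE, adjusted p = 8.43e-05), and the rise from day 3 to day 7 was 5.58-fold (adjusted p = 0.00409). At day 7 the difference from sham was -1.18 ± 0.48 SE (adjusted p = 0.109) and was not called.

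Slc22a7 encodes OAT2, a carrier of organic anions and of cyclic GMP. It read 1.42, 1.22, 0.52 and 0.84 in sham, -4.41, -4.13, -2.77 and -4.08 at day 3 and -2.64, -2.41, -3.74 and -2.08 at day 7. Both injured groups lay below all sham arrays and overlapped each other, and day 7 replicate 3 was not above background. It fell 28.8-fold at day 3 (adjusted p = 6.65e-06) and was 13.1-fold lower than sham at day 7 (-3.72 ± 0.40 SE, adjusted p = 0.000319), the largest difference among the tested genes at that day. Between the days the difference was 1.13 ± 0.40 SE (adjusted p = 0.0508); without day 3 replicate 3 or day 7 replicate 3 it was called (adjusted p = 0.0121 and 0.0124).

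Slc22a12 encodes URAT1, which takes urate back from the urine, and Slc22a13 encodes OAT10, an apical exchanger of urate and nicotinate. Slc22a12 levels were 1.50, 1.27, 0.57 and 1.44 in sham, -2.67, -3.43, -0.01 and -4.95 at day 3 and -0.05, 0.64, -0.61 and 1.43 at day 7. The day 3 arrays ranged widely, from replicate 4, which was not above background, to replicate 3 near 0. The day 7 arrays overlapped both other groups. The fall at day 3 was 15.6-fold (-3.96 ± 0.82 SE, adjusted p = 0.00152), 29.4-fold without day 3 replicate 3 and 9.41-fold without replicate 4. The rise between the days was 8.69-fold (adjusted p = 0.0152), 16.4-fold without day 3 replicate 3 and 5.25-fold without replicate 4. At day 7 the difference from sham was -0.84 ± 0.82 SE (adjusted p = 0.505).

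For Slc22a13 the values were 2.36, 1.55, 0.78 and 0.18 in sham, -3.77, -2.87, -1.75 and -4.39 at day 3 and -0.36, -1.86, -1.56 and -2.14 at day 7. Sham lay above both injured groups, although the sham arrays themselves spanned more than a 4-fold range. The gene fell 21.3-fold at day 3 (adjusted p = 0.000102) and was 6.48-fold lower at day 7 (adjusted p = 0.0113). A second, dimmer probe for the gene gave -3.25 and -2.13 for the same comparisons, and 1.12 between the days (adjusted p = 0.03 in a limma fit of all tested probes). The rise between the days was 3.28-fold, near the threshold (adjusted p = 0.0483): the call ended when any 1 array of these groups other than day 3 replicate 3 was left out (adjusted p = 0.0583 to 0.14). It also ended with slide (0.0898) or scan batch (0.0541) as a block, under quantile normalization (0.0592), total signal scaling (0.0562), the deposited log2 values (0.0521) and no filter on dim probes (0.0589), and within slide 1 the difference was -0.11.

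Slc22a9 and Slc22a25 belong to a row of closely related genes on the same stretch of chromosome 1. Slc22a9 is the name in the files, and RefSeq now lists this gene as Slc22a24. Probes in this family can bind transcripts of near relatives, so both identities are uncertain. Slc22a9 read 1.56, 1.90, 0.99 and 1.75 in sham, -5.06, -6.91, -3.78 and -7.21 at day 3 and -1.33, -0.33, -2.31 and -0.01 at day 7. Only replicate 3 of the day 3 arrays was above background, and the groups did not overlap. Its fitted fall at day 3 was the largest of all 44 genes, at 156-fold (-7.29 ± 0.70 SE, adjusted p = 1.38e-05) with all arrays. Without replicate 3 no day 3 array was above background, and the gene was at least 84.8-fold lower. It was 5.82-fold below sham at day 7 (adjusted p = 0.0275), a call that ended without sham replicate 1, 2 or 4 (adjusted p = 0.0581, 0.0569 and 0.0521) or day 7 replicate 1 or 3 (0.0674 and 0.0789). Between the days it rose 26.8-fold (adjusted p = 0.00122), or at least 14.6-fold without day 3 replicate 3.

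Slc22a25 showed the same order of groups and stayed above background on all arrays. It stood at 2.94, 3.17, 2.91 and 2.68 in sham, -1.37, -1.75, -0.96 and -2.82 at day 3 and -0.16, 1.56, 0.09 and 1.58 at day 7. The 3 groups did not overlap. It fell 25.1-fold at day 3 (adjusted p = 1.43e-05), rose 5.62-fold from day 3 to day 7 (adjusted p = 0.00297) and was 4.47-fold below sham at day 7 (adjusted p = 0.00823).

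**Figure D3:**
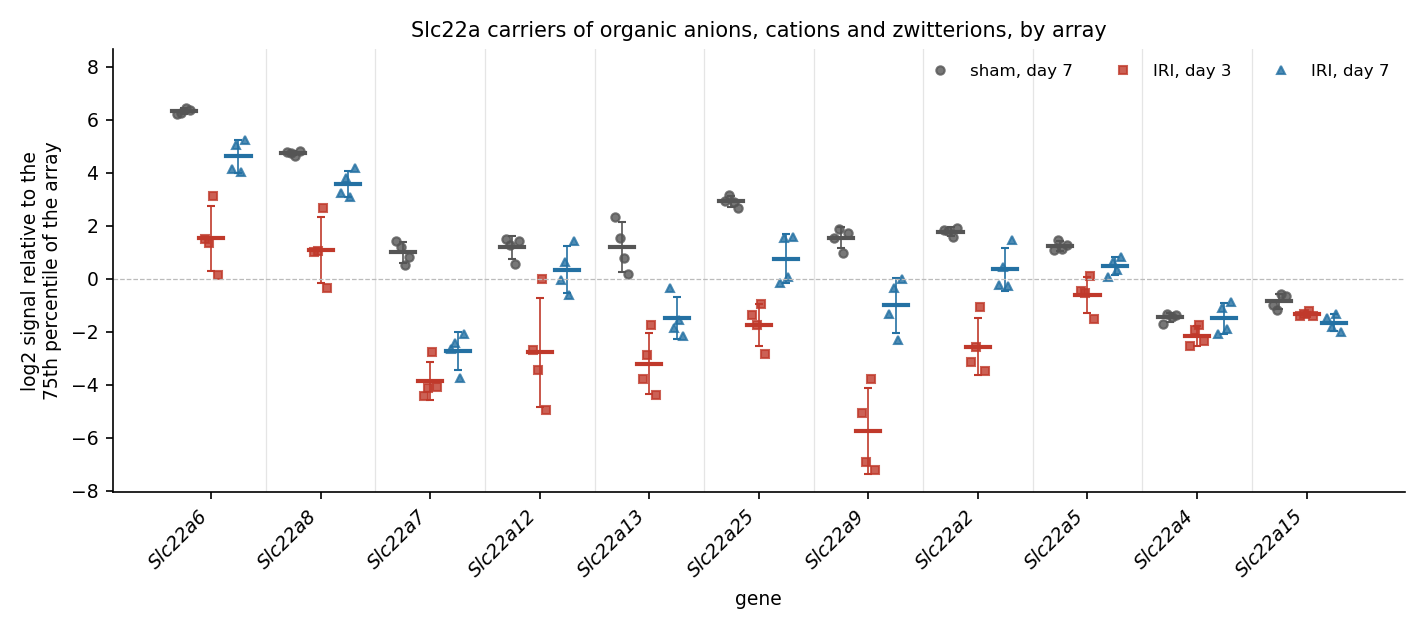
Log2 level on the 75th-percentile scale (y axis) for 11 Slc22a genes (x axis) on each of 4 arrays in sham, at day 3 and at day 7; bars are group means ± SD. For Slc22a6, Slc22a8, Slc22a25, Slc22a9 and Slc22a2 the 3 groups do not overlap, with day 3 lowest and day 7 between. Levels of different genes are not comparable.

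Organic cation and zwitterion carriers had a smaller median change. All 5 tested genes were lower at day 3 (median -1.55), 1 was lower at day 7 (median -0.76), and 3 rose between the days (median 1.07). The shares of all genes were 33.1%, 10.6% and 18% in the same order. Slc22a3, which encodes OCT3, was above background on 1 day 3 array and no other, and was not tested.

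Slc22a2 encodes OCT2, the carrier that brings metformin and cisplatin into proximal tubule cells, and it fell most in this class. Its levels were 1.84, 1.80, 1.57 and 1.94 in sham, -3.14, -2.58, -1.05 and -3.47 at day 3 and -0.23, 0.46, -0.25 and 1.48 at day 7. The 3 groups did not overlap. It fell 20.3-fold at day 3 (adjusted p = 3.39e-05) and rose 7.58-fold between the days (adjusted p = 0.00211). Against sham at day 7 it stood at -1.42 ± 0.49 SE (adjusted p = 0.0628), which was called without day 7 replicate 4 (adjusted p = 0.0247).

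Slc22a5 encodes OCTN2, which reabsorbs carnitine, the carrier molecule of fatty acids into mitochondria. Its values were 1.08, 1.48, 1.13 and 1.27 in sham, -0.44, -0.53, 0.11 and -1.52 at day 3 and 0.07, 0.65, 0.35 and 0.83 at day 7. All injured arrays lay below all sham arrays, and day 3 replicate 3 was just above the lowest day 7 array. It fell 3.57-fold at day 3 (adjusted p = 0.000291), and rose 2.1-fold by day 7 (adjusted p = 0.0184, and 0.055 without day 7 replicate 4). The difference from sham at day 7 was -0.76 ± 0.29 SE (adjusted p = 0.0889).

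Slc22a4 and Slc22a15 differed from sham by small amounts near the limit of the test. Slc22a4 encodes OCTN1, a carrier of the antioxidant ergothioneine. Its levels were -1.68, -1.30, -1.43 and -1.37 in sham, -2.54, -1.93, -1.73 and -2.36 at day 3 and -2.07, -1.09, -1.88 and -0.88 at day 7. Day 3 lay below sham, and day 7 overlapped both. The difference at day 3 was -0.69 ± 0.27 SE (adjusted p = 0.045), a call lost when slide entered the fit as a block (0.0903), under scaling to total signal (0.184) and without any 1 array of these groups other than sham replicate 1 and day 3 replicate 3 (0.0542 to 0.126). Between the days the difference was 0.66 (adjusted p = 0.0817), and it was called without day 7 replicate 1 (0.0387). Slc22a15, a carrier of zwitterions, read -0.98, -1.17, -0.56 and -0.63 in sham, -1.41, -1.34, -1.20 and -1.39 at day 3 and -1.46, -1.81, -1.32 and -2.01 at day 7. Both injured groups lay just below sham. It was -0.50 ± 0.19 SE at day 3 (adjusted p = 0.0376) and -0.81 ± 0.19 SE at day 7 (adjusted p = 0.0124). The day 3 call was lost in a fit blocked by slide (0.0695), under total signal scaling (0.35) and without sham replicate 3 or 4 or day 3 replicate 1, 2 or 4 (0.0713 to 0.0973), and the day 7 call under total signal scaling (0.0548) and with the mean of both probes (-0.54, adjusted p = 0.153). A second, dimmer probe gave 0.05 at day 3 (adjusted p = 0.922) and -0.26 at day 7 (adjusted p = 0.693).

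Among the other Slc22a genes, Slc22a23, an orphan carrier, fell 7.74-fold at day 3 (adjusted p = 4.18e-06). It read 2.84, 2.86, 3.07 and 3.10 in sham, -0.26, 0.23, 0.39 and -0.31 at day 3 and 1.30, 2.0, 1.26 and 1.91 at day 7. The groups did not overlap, and the gene remained 2.55-fold below sham at day 7 (adjusted p = 0.00243) after a rise of 3.04-fold (adjusted p = 0.000816). Slc22a18, from an imprinted gene region, went from 3.61 ± 0.26 (SD, n = 4 per group) in sham to 1.42 ± 0.49 at day 3 and 2.21 ± 0.42 at day 7. It was 4.57-fold lower at day 3 (adjusted p = 5.08e-05) and 2.63-fold lower at day 7 (adjusted p = 0.00542). Its rise between the days (0.79, adjusted p = 0.0408) was not called without day 3 replicate 1, 2 or 4 or day 7 replicate 2 or 4 (adjusted p = 0.0765 to 0.122), with slide as a block (0.0547), with no filter on dim probes (0.0563) and in a fit of these groups alone (0.0561). Slc22a17, which encodes a receptor for lipocalin-2, was -0.75 ± 0.23 SE at day 3 (adjusted p = 0.015), with overlapping arrays, and -0.22 at day 7 (adjusted p = 0.531). Slc22a14 was above background on no array.

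Few of the Slco genes could be measured. Of 15, 5 were tested, with 3 lower and 1 higher at day 3 and 2 lower at day 7 (all genes: 33.1%, 24.2% and 10.6%). Slco1a6, a carrier expressed mainly in kidney, lost its signal at day 3. Its levels were -0.99, -1.17, -1.91 and -1.94 in sham, -5.31, -4.40, -4.76 and -4.93 at day 3 and -3.52, -3.54, -4.69 and -3.65 at day 7, and no day 3 array and 2 day 7 arrays were above background. It was at least 8.76-fold lower at day 3 (means -1.50 ± 0.49 and -4.85 ± 0.38, SD, n = 4 each). The adjusted p of 1.21e-05 belongs to the fitted difference of -3.35, which used day 3 readings at background. At day 7 the fitted difference was 5.09-fold lower (adjusted p = 0.00095). The gene passed the filter only through sham, where it was high, and is counted among the genes lower at both days. Day 7 read higher than day 3, with means of -3.85 ± 0.56 and -4.85 ± 0.38 (adjusted p = 0.0316), but the size of this difference is not settled with 2 of 8 arrays above background. Abcb1a, at background on every array, also read higher at day 7 (-5.66 ± 0.33) than at day 3 (-6.48 ± 0.48). The call ended without day 3 replicate 1 or 4 or day 7 replicate 1, 2 or 4 (adjusted p = 0.0757 to 0.0864), with slide as a block (0.0629) and under quantile normalization (0.0698).

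Slco2a1, the prostaglandin transporter, read -0.93, -1.36, -1.19 and -1.34 in sham, -2.03, -2.32, -2.45 and -2.56 at day 3 and -2.19, -1.87, -1.90 and -2.22 at day 7. Both injured groups lay below all sham arrays. It fell 2.2-fold at day 3 (adjusted p = 0.000141) and was 1.79-fold lower at day 7 (adjusted p = 0.00579). The gene is also known from endothelium. Of the 10 endothelial markers given above, 6 were lower at day 3 and 4 at day 7, with the others not called. Their part was not tested. Slco3a1, another prostaglandin carrier, was the 1 Slco gene that rose. It read 0.25, 0.50, 0.50 and -1.31 in sham, 2.15, 1.86, 1.40 and 1.84 at day 3 and 1.40, 0.32, 1.49 and 0.08 at day 7. Sham replicate 4 stood far below the other sham arrays, and all day 3 arrays lay above all sham arrays. The rise at day 3 was 3.55-fold (1.83 ± 0.43 SE, adjusted p = 0.00342), and at day 7 the difference was 0.84 ± 0.43 SE (adjusted p = 0.191).

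Slco1b3, listed by RefSeq as Slco1b2 and best known from liver, was -1.16 ± 0.31 SE at day 3 (adjusted p = 0.00739). It was dim, at -3.26 ± 0.64 (SD, n = 4 per group) in sham and -4.42 ± 0.33 at day 3. A second probe, above background on no array, also read lower at day 3 (-6.55 ± 0.36) than in sham (-5.19 ± 0.79). The size of this fall is therefore not settled. Slco2b1 stood at 0.18 ± 0.37 SE at day 3 (adjusted p = 0.705). Slco4c1, a basolateral carrier of digoxin and thyroid hormone, was not tested. It was above background on 3 sham arrays and on no injured array, with -1.56, -1.71, -4.95 and -3.72 in sham. It was at least 3.25-fold lower at day 3 and at least 1.84-fold lower at day 7, with means of -2.99 ± 1.64 (SD, n = 4 per group) in sham, -6.51 ± 0.33 at day 3 and -5.75 ± 0.32 at day 7. The sham values thus spanned a wide range, and no test was made. Slco1a1, Slco6b1, Slco6c1 and Slco6d1 were above background on no array, and Slco1a4, Slco1a5, Slco1c1, Slco4a1 and Slco5a1 on some arrays only.

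The exporters are described next. Slc47a1 encodes MATE1, which passes cations taken up by OCT2 into the urine. It read 2.17, 2.50, 1.44 and 2.13 in sham, 0.66, 0.73, 1.71 and 0.13 at day 3 and 0.84, 1.20, 1.45 and 1.48 at day 7. Day 3 replicate 3 stood above the lowest sham array, so the groups overlapped. The fall at day 3 was 2.38-fold (-1.25 ± 0.32 SE, adjusted p = 0.00542), and at day 7 the difference was -0.82 ± 0.32 SE (adjusted p = 0.0914). Slc47a2 was above background on no array.

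Of the plasma membrane Abcb genes, both tested ones were higher at day 3 (all genes: 24.2%). Abcb1b, 1 of the 2 rodent genes for P-glycoprotein, the multidrug pump of the apical membrane, rose most of all 44 genes. Its levels were -1.69, -1.73, -1.56 and -1.84 in sham, 1.88, 2.06, 0.84 and 2.40 at day 3 and -0.06, -0.54, -0.15 and -0.42 at day 7. The 3 groups did not overlap, with sham lowest and day 3 highest, and day 3 replicate 3 was the lowest of its group. Abcb1b rose 11.3-fold at day 3 (3.50 ± 0.27 SE, adjusted p = 5.24e-06). It then fell 4.24-fold between the days (adjusted p = 0.000694) and remained 2.66-fold above sham at day 7 (1.41 ± 0.27 SE, adjusted p = 0.00575).

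Abcb1b was measured by 2 overlapping probes, printed here because the near-identical gene Abcb1a gave no signal with its own probe. They lie on chromosome 4 of build rn4, at chr4:21912155-21912214 for the first and chr4:21912180-21912239 for the second, and the 35 bases in capitals are shared by both.
Abcb1b first probe: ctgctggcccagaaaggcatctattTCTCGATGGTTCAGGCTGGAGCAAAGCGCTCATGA
Abcb1b second probe: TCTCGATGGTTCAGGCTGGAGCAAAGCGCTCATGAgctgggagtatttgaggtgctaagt
Because they share these bases, the 2 probes are not independent readings. The second probe gave 4.19 for day 3 against sham, 1.87 for day 7 against sham and -2.33 for day 7 against day 3. Abcb1a was above background on no array, with -5.78 ± 0.61 (SD, n = 4 per group) in sham, -6.48 ± 0.48 at day 3 and -5.66 ± 0.33 at day 7. A probe at background thus also read lower at day 3 on this scale. How much of the signal of either probe came from transcripts of the other gene was not tested.

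The promoter of Abcb1b is known for its CCAAT boxes, and is shown for them. The line gives the 250 bases before the start site from RefSeq on build GRCr8 (chr4:26280030-26280279, minus strand), 5′ to 3′, with CCAAT and its reverse ATTGG in capitals.
Abcb1b: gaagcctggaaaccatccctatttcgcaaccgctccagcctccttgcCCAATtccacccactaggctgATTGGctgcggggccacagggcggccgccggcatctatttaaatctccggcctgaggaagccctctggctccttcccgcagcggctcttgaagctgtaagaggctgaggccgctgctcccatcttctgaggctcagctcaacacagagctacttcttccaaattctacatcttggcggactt
The boxes lie at -203 to -199 and -182 to -178 relative to the start site. RefSeq promoters, counted from 250 bases before to 50 after the start site, were found for 53 of the 65 genes. Of these, 20 hold CCAAT on either strand, against 37.5% of 33469 promoters of this length. Such a match describes these letters and says nothing of binding. Other motifs searched on both strands in these windows were the AP-1 site TGACTCA, in 2 promoters of the set against 4.63% of all, and the antioxidant response element core TGACNNNGC, in 8 against 12.1%. Neither was found in the window of Abcb1b. The HNF4 site CAAAGTCCA (TGGACTTTG on the other strand) was found in 1 of the 53 promoters, that of Abcb4, against 0.391% of all promoters.

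Abcb4, the neighbouring gene on chromosome 4, encodes the phospholipid flippase of bile canaliculi. It read -2.73, -2.94, -2.82 and -2.88 in sham, -2.0, -1.53, -1.96 and -1.58 at day 3 and -2.75, -2.53, -2.45 and -2.67 at day 7, close to background, with 3 of 4 sham arrays above it. Day 3 lay above both other groups. The rise at day 3 was 2.1-fold (adjusted p = 0.000107), but the difference turned to -0.19 under normexp correction (adjusted p = 0.735). Leaving spots dimmer than their local background out of that correction gave 0.27, also not called (adjusted p = 0.0939). It fell again between the days (-0.83 ± 0.15 SE, adjusted p = 0.0027). Abcb5 and Abcb11 were above background on no array.

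Of 5 Abcb genes of organelles, all tested, 2 were lower at day 3 (all genes: 33.1%) and none was higher or called at day 7 by limma. Abcb10, of the inner mitochondrial membrane, fell 2.5-fold at day 3 (adjusted p = 0.00223), and Abcb9, a lysosomal peptide transporter, fell 2.47-fold (adjusted p = 0.00933). Abcb6 and Abcb8, which encode proteins of mitochondria, stood at -0.34 and -0.20 (adjusted p = 0.155 and 0.659).

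**Figure D4:**
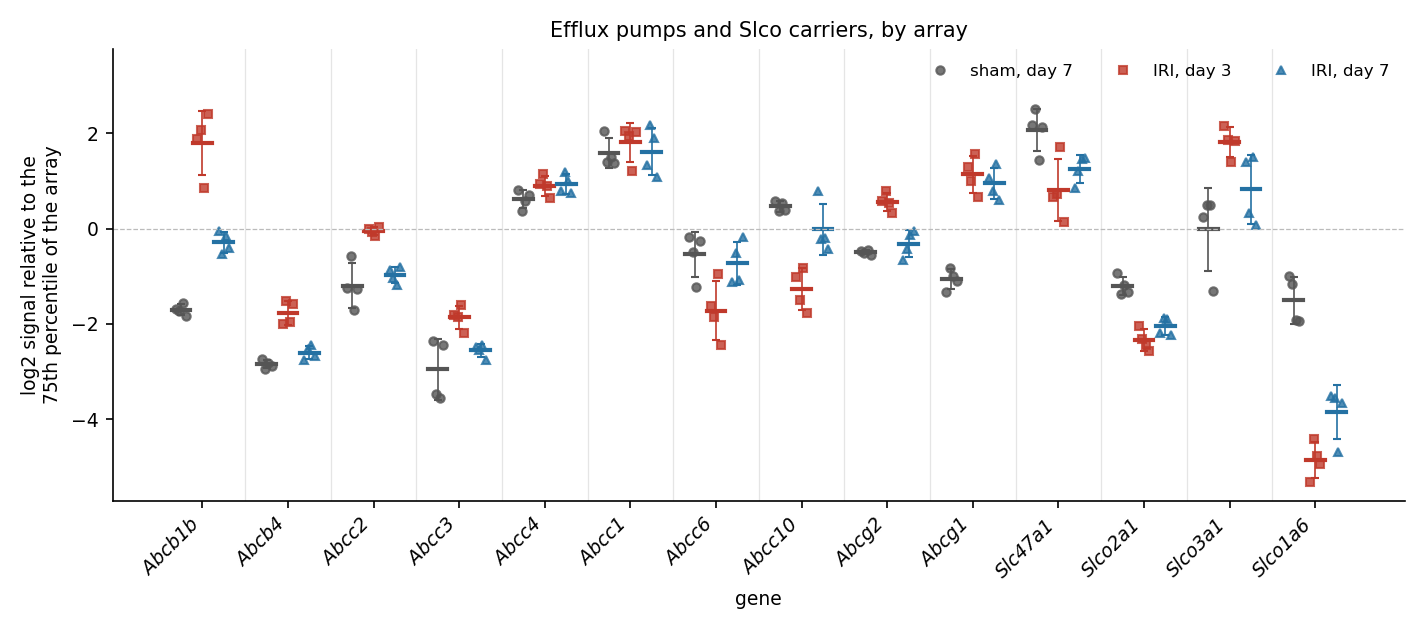
Log2 level on the 75th-percentile scale (y axis) for efflux pumps and Slco genes (x axis) on each of 4 arrays in sham, at day 3 and at day 7; bars are group means ± SD. The 3 groups of Abcb1b do not overlap, with day 3 highest, and Abcg1 is above sham on all injured arrays; levels of different genes are not comparable.

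Among 7 tested multidrug resistance proteins of the Abcc family, 2 were higher and 2 lower at day 3, a share called close to the 57.3% of all genes, and none was called at day 7 by limma. Abcc2 encodes MRP2, which exports glucuronide and glutathione conjugates at the apical membrane. It read -1.24, -0.57, -1.71 and -1.27 in sham, -0.01, -0.08, -0.15 and 0.02 at day 3 and -0.88, -1.04, -1.18 and -0.81 at day 7. The day 3 arrays were close together above both other groups. It rose 2.21-fold at day 3 (adjusted p = 0.000664, and 0.133 under normexp correction) and fell 1.89-fold between the days (adjusted p = 0.00791).

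Abcc3, which encodes the basolateral pump MRP3, read -2.35, -3.46, -3.56 and -2.44 in sham, -1.80, -1.84, -1.61 and -2.19 at day 3 and -2.48, -2.55, -2.44 and -2.75 at day 7. Sham fell into a higher and a lower pair, 3 of its arrays were above background, and all day 3 arrays lay above them. The rise at day 3 was 2.13-fold (adjusted p = 0.00465), but the difference turned to -0.26 under normexp correction (adjusted p = 0.633). With spots dimmer than their local background left out of that correction it was 0.24 and again not called (adjusted p = 0.133). Abcc4 encodes MRP4, the apical pump for drugs and urate. It read 0.82, 0.37, 0.57 and 0.70 in sham, 0.93, 1.14, 0.88 and 0.63 at day 3 and 0.80, 1.19, 1.0 and 0.75 at day 7, and the groups overlapped. Its brighter probe gave 0.28 ± 0.16 SE at day 3 (adjusted p = 0.153), a dimmer probe gave 0.68 (adjusted p = 0.00781), and under total signal scaling the brighter probe was called (0.56, adjusted p = 0.0182). Abcc1, which encodes the basolateral pump MRP1, read 2.04, 1.39, 1.50 and 1.38 in sham, 2.04, 1.95, 1.20 and 2.02 at day 3 and 1.33, 2.16, 1.89 and 1.07 at day 7, and stood at 0.23 ± 0.27 SE at day 3 (adjusted p = 0.495) and 0.04 ± 0.27 SE at day 7 (adjusted p = 0.943). Neither comparison was called, and all groups overlapped.

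Abcc10 and Abcc6 went the other way. Abcc10 read 0.59, 0.36, 0.53 and 0.39 in sham, -1.01, -1.50, -0.82 and -1.76 at day 3 and 0.78, -0.22, -0.19 and -0.42 at day 7. Day 3 lay below both other groups. It fell 3.34-fold at day 3 (adjusted p = 0.000228) and rose 2.39-fold between the days (adjusted p = 0.00625), and its difference from sham at day 7 (-0.48, adjusted p = 0.231) was called without day 7 replicate 1 (-0.75, adjusted p = 0.0491). Abcc6, of which mutations cause calcification of elastic tissue, fell 2.26-fold at day 3 (adjusted p = 0.0102), from -0.54 ± 0.48 to -1.72 ± 0.61 (SD, n = 4 each), with overlapping arrays. Its rise between the days (1.0, adjusted p = 0.0407) was not called without day 3 replicate 1, 2 or 4 or day 7 replicate 2 or 4 (adjusted p = 0.0695 to 0.121) or with no filter on dim probes (0.0556). Abcc5 stood at -0.01 ± 0.35 SE (adjusted p = 0.983), and Abcc12 was above background on no array. Of the sulfonylurea receptor genes, which encode subunits of potassium channels, Abcc9 stood at 0.16 ± 0.38 SE at day 3 (adjusted p = 0.734) and Abcc8 was above background on some arrays only.

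Among 8 tested Abcg genes, 2 were higher and 1 was lower at day 3, against 24.2% and 33.1% of all genes. Abcg2 encodes BCRP, an apical pump for drugs and urate. It read -0.47, -0.50, -0.46 and -0.54 in sham, 0.57, 0.78, 0.54 and 0.33 at day 3 and -0.66, -0.44, -0.13 and -0.04 at day 7. The day 3 arrays lay above all others, and sham and day 7 overlapped. It rose 2.07-fold at day 3 (1.05 ± 0.16 SE, adjusted p = 0.000195) and fell 1.83-fold between the days (adjusted p = 0.003).

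Abcg1, which passes cellular cholesterol to lipoproteins and is well known from macrophages, stayed high. It read -1.33, -0.82, -1.0 and -1.10 in sham, 1.29, 1.0, 1.57 and 0.66 at day 3 and 1.06, 0.79, 1.35 and 0.59 at day 7. Every injured array lay above every sham array, and the injured groups overlapped. It was 4.58-fold higher at day 3 (adjusted p = 1.76e-05) and 4.02-fold higher at day 7 (adjusted p = 0.000339), with -0.19 ± 0.22 SE between the days (adjusted p = 0.54). Of the 10 tested macrophage markers given above, 7 were higher at day 3 and 3 at day 7, with the others not called. Their part in this result was not tested.

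Abcg5, which exports plant sterols, was 2.08-fold lower at day 3 (adjusted p = 0.000125) and 1.55-fold lower at day 7 (adjusted p = 0.0142). Its partner Abcg8 was above background on no array, and Abcg4 on 1. The 5 rodent relatives of Abcg2, Abcg3 and Abcg3l1 to Abcg3l4, were not called in any comparison by limma. They stood between -0.35 and 0.04 at day 3, and their probes may bind each other's transcripts.

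Other genes of the secretory pathway came from separate lists, whose counts stand against 33.1% of all genes lower and 24.2% higher at day 3, and 10.6% lower at day 7. The counter-ion list holds carriers and pumps that supply the gradients for anion and cation uptake, and also Ggt1, which encodes an enzyme. All 6 genes of the list were lower at day 3 (median -1.70) and 3 at day 7 (median -0.73). Slc13a3, the basolateral dicarboxylate carrier, fell 3.69-fold at day 3 (adjusted p = 3.13e-05) and stood 2.58-fold below sham at day 7 (adjusted p = 0.00185). Slc13a2, its apical counterpart, fell 6.9-fold at day 3 (adjusted p = 7.83e-06). Of 5 genes for scaffold proteins that hold carriers at the apical membrane, 4 were lower at day 3 and the same number at day 7. Among these, Nherf4 was above background on all 4 sham arrays, on no day 3 array and on 1 day 7 array. It passed the filter only through sham, where it was high. Pdzk1 fell 3.53-fold at day 3 (adjusted p = 4.13e-05), whereas Ezr, which encodes ezrin, stood at 0.25 ± 0.16 SE (adjusted p = 0.207).

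Of 13 tested regulators of transporter genes, 7 were lower and 2 higher at day 3, and 4 were lower at day 7 (all genes: 33.1%, 24.2% and 10.6%). Hnf4a, a nuclear receptor of the differentiated proximal tubule, fell 4.71-fold at day 3 (adjusted p = 6.09e-05) and was 1.93-fold lower at day 7 (adjusted p = 0.0359). Ppara, the lipid-sensing receptor, fell 10.1-fold (adjusted p = 5.11e-06), and Nfe2l2, which encodes the antioxidant regulator NRF2, stood at 0.04 ± 0.14 SE (adjusted p = 0.813). Of 16 tested solute carriers of other families for drugs, urate, bile acids and nucleosides, 9 were lower and 1 higher at day 3, and 4 were lower at day 7, set against the same shares of all genes. The peptide transporters Slc15a1 and Slc15a2 fell 16.6-fold and 12.3-fold (adjusted p = 8.53e-05 and 1.21e-05), and the nucleoside transporter Slc28a1 fell 31.9-fold (adjusted p = 3.54e-08). Slc46a1, the folate carrier, rose 2.64-fold (adjusted p = 0.011) from 2 sham arrays above background, and the urate carriers Slc2a9 and Slc17a1 stood at -0.14 and -0.56 (adjusted p = 0.832 and 0.192). Slc17a2 and Slc17a3, of the same family as Slc17a1, were lower (-1.85 and -0.92, adjusted p = 0.000364 and 0.0219).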

How the data were processed

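RNA of 12 left kidneys was hybridised to 1-colour Agilent arrays. The deposited scanner files hold intensities from Agilent Feature Extraction 9.5.1.1, background-subtracted and detrended within each array per the file headers, and flags of 0 or 1 for spots well above background. Probe positions are on rn4 per the file headers. A deposited table of log2 values was set against the scanner signals: it matched them after scaling by each array's 75th percentile and centring of each probe on its median (lowest correlation 0.998). No step the authors took to make it is stated. Its column medians, in the order of the replicates, were -0.0011, -0.03, 0.30 and 0.01 in sham, -0.11, -0.16, 0.0020 and -0.21 at day 3 and 0.01, 0.04, 0.0051 and 0.12 at day 7.

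Here, log2 processed signals of 42877 non-control spots were scaled by their array's 75th percentile, spots flagged as non-uniform or population outliers were left out, and spots of a probe were averaged. Genes were named through RefSeq for 17998 probes by accession, 2359 by symbol and 615 by synonym, and 9395 kept the name of the file. A probe was tested if well above background on all arrays of a group, and the brightest tested probe stood for its gene (15 of the 65 genes had more than 1 probe). One limma 3.58.1 fit (R 4.3.3) over all 12 arrays and all tested genes gave two-sided moderated tests with Benjamini-Hochberg adjustment at 0.05. Where no array of a group was above background, "at least" folds set the higher group against the lowest signal above background. Values of every array were given for a list of main renal transporters and for the genes of largest change among those called, with up to 8 further genes per comparison. Named genes outside this rule were chosen after their values were seen. The genes, lists and tests were chosen with earlier results of these data known. The fit was tested on simulated data. Alternatives covered background correction, scaling, filter, probe choice, blocks and left-out arrays. Results of some named genes are not reported here.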

Additional observations from a re-analysis of the deposited data

Results flagged for a closer look

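In 4 of the 81 groups of 4 arrays that 27 named genes gave, 1 array stood far from the others; chance gives about 1 in 20 groups. Abcc1 at day 3 was 1.20 in replicate 3, while the nearest other array was at 1.95. Slco1a6 at day 7 was -4.69 in replicate 3, with the nearest array at -3.65. In sham, Slc22a18 was 3.99 in replicate 1 (nearest array 3.52), and Slco3a1 was -1.31 in replicate 4 (nearest array 0.25).

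The difference from sham changed between day 3 and day 7 by limma in 17 of the 27 genes, some of which were named for their change between the days, so this count is no evidence. Over all tested transporter genes it was 19 of 44, against 31.4% of all genes. Because both differences share the sham arrays, this change equals day 7 minus day 3 on the log2 scale. Among the organic anion carriers it was 4.75 for Slc22a9, 3.12 for Slc22a12, 3.10 for Slc22a6, 2.49 for Slc22a25, 2.48 for Slc22a8 and 1.71 for Slc22a13. Among the cation and zwitterion carriers it was 2.92 for Slc22a2 and 1.07 for Slc22a5. It was 1.60 for Slc22a23, 0.79 for Slc22a18, 1.0 for Slco1a6, 1.26 for Abcc10 and 0.996 for Abcc6. Of the 6 pumps called higher at day 3, 4 changed downward, by -2.08 for Abcb1b, -0.92 for Abcc2, -0.87 for Abcg2 and -0.83 for Abcb4. The change was not called for Abcc3 (-0.69, adjusted p = 0.0681) or Abcg1 (-0.19, adjusted p = 0.54).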

How the results depend on the processing

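Normexp correction of all spots gave 17 transporter calls at day 3 (4 higher, 13 lower), 0 at day 7 and 2 between the days by limma, and over all genes 17.1%, 0.492% and 0.859% were called; the cause was not tested. Of the 54 calls of named genes, 36 were lost under it (9 of 25 at day 3, all 12 at day 7 and 15 of 17 between the days), 34 of them with the same direction; at day 3 Abcb4 turned to -0.19 and Abcc3 to -0.26. Within slide 1, Slc22a13 turned to -0.11 between the days; otherwise the called values of named genes had the same direction within each slide (75 of 75, 36 of 36 and 50 of 51). Sizes differed more: within slide 1, whose single day 3 array is replicate 3, 22 of the 25 differences called at day 3 were closer to 0, among them Slc22a12 (-1.48), Slc22a8 (-2.13) and Slc22a6 (-3.17). The other settings kept each count within 1.5 times: 24 to 37 at day 3, 11 to 16 at day 7 and 15 to 25 between the days, outside left-out arrays. These counts are not all of 44 genes. At day 3 the 24 was of 36 genes well above background on all 12 arrays, and the 37 of 65 with no filter on dim probes. Over all genes, 50.8% to 64.2%, 9.6% to 23.1% and 20.1% to 42.4% were called in the same settings. Leaving out 1 array gave 29 to 31, 11 to 14 and 13 to 20 calls. The median change of all genes at day 3 moved from -0.13 to -0.41 under normexp, and to 0.15 under scaling to total signal, where 21 genes were lower and 8 higher at day 3.

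The labels number the rats of each group 1 to 4, but same-numbered rats did not deviate together (r = -0.33 to 0.14, and 2 of 12 arrays correlated best with their own number). With the replicate number as a block, 31, 11 and 16 genes were called. Under that pairing the day 7 calls of Slc22a6 (adjusted p = 0.0686) and Slc22a9 (0.0678), and the calls between the days of Slc22a18 (0.0839) and Abcc6 (0.0838), ended. Signals near background limit the size of the falls of Slc22a9 and Slco1a6.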

Other observations

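A pair of relatives of these genes carry older names in the files and so were not chosen by name; they were looked up after the files had been seen. Slco1a3, named Slc21a4 in the files and known as a kidney-specific carrier of organic anions, read 0.02, 0.20, -1.20 and -0.15 in sham, -4.10, -4.00, -1.02 and -2.46 at day 3 and -1.91, -1.21, -2.31 and -1.81 at day 7. Day 3 replicate 3 lay within the sham range and the other day 3 arrays below it. The gene was 6.11-fold lower at day 3 (-2.61 ± 0.59 SE, limma adjusted p = 0.00282) and 9.41-fold lower without day 3 replicate 3, and at day 7 the difference was -1.53 (adjusted p = 0.0908). Slc22a22, named RGD1304605 in the files, was above background on 1 day 7 array and no other.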
